A study of Homo sapiens with 18 samples.

Results

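The comparison described here is that of OVCAR3-KRAB cells carrying sgXIST9 with the same line carrying sgCtl after hypoxia. It rests on 6 of the 18 RNA-seq libraries of the series, 3 replicates of each group, chosen by their labels for sgRNA and oxygen, and it covers 14938 tested genes of the 28277 in the deposited table. OVCAR3 is an established cell line derived from an ovarian carcinoma. Cells of both groups stably express dCas9-KRAB, a nuclease-dead Cas9 fused to a repressor domain, and were kept for 24 h in a chamber with 1% oxygen before RNA was extracted. They differ in the guide: sgXIST9 directs the repressor to the promoter of XIST, while sgCtl is a control guide. The cells are clonal, and the sources used here do not say how many clones the 3 replicates of a guide come from, so differences between clones and an effect of the guide cannot be told apart. The same contrast in normoxia (6 libraries) and the 3 hypoxia libraries of sgXIST7, another guide to the same promoter, are set beside it.

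XIST is the long noncoding RNA that coats an X chromosome in female cells and starts its inactivation. JPX and FTX are noncoding genes beside it that act as its activators. CRISPR interference lowers transcription at the promoter to which the guide leads dCas9-KRAB, without cutting DNA. In low oxygen, cells stabilize the HIF transcription factors, which induce genes for glycolysis, pH control, angiogenesis and for the prolyl hydroxylases that limit HIF itself.

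Total counts were 15696888, 19433408 and 12042716 in sgCtl and 21732821, 22674565 and 16208517 in sgXIST9. Values are given as CPM, read counts per 1000000 mapped reads, scaled to library sizes normalized by TMM. Replicate 3 of each group had the fewest counts and stood apart. Its log2 profile correlated with the other libraries of sgCtl at 0.953 and 0.964, where replicates 1 and 2 correlated at 0.987, and with those of sgXIST9 at 0.967 and 0.980, where the others correlated at 0.988 (Pearson's r across genes). The median rise of 30 HIF targets over the mean of the 6 normoxia libraries of both groups, on the log2(CPM + 1) scale, was 3.10, 2.94 and 3.42 in sgCtl and 2.88, 2.70 and 3.32 in sgXIST9, so it was highest in replicate 3 of both groups. Some counts below are therefore also given without replicate 3 of the hypoxia groups.

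The labelled identity was checked with 15 genes of ovarian carcinoma and Müllerian epithelium, of which 5 passed the filter on low counts. EPCAM had 1787 to 3330 counts in sgCtl and 3974 to 5193 in sgXIST9, KRT18 had 1461 to 3836 over the 6 libraries, and PAX8, the Müllerian transcription factor, only 34 to 64. MUC16, which encodes the CA125 antigen, had at most 4 counts in any of the 18 libraries, and SOX17, FOLR1, KRT7 and CDH6 had at most 3 in each. CLDN3 was at 0 in all 18. The lineage markers therefore only partly bear out the label, and the cells are described as those labelled OVCAR3. Among markers of other cell types, the defining genes PTPRC of leukocytes, CDH5 of endothelium, PDPN of stromal cells and SNAP25 and SOX10 of the neural lineage had 0 counts in the 6 libraries. Other members of these lists were present, with 202 to 399 counts of CD68, 6 to 58 of ITGAM, 21 to 86 of ESAM, 1745 to 4275 of TUBB3 and 5639 to 20080 of COL3A1, and their source was not tested.

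XIST was lower in sgXIST9 under hypoxia, and remained detectable. The 3 sgCtl libraries held 1974, 5014 and 1589 counts of it (123, 249 and 141 CPM), and those of sgXIST9 held 357, 472 and 510 (16.3, 21.4 and 32.2 CPM). Every sgXIST9 library was below every sgCtl library, and the sgXIST9 mean was 13.6% of the sgCtl mean. The log2 fold change was -2.88 (SE 0.43, adjusted p = 8.7e-05, edgeR), and it was -3.31 without replicate 3 of the hypoxia groups. A two-sided exact permutation test on the CPM gave p = 0.1, the smallest that 3 libraries against 3 allow. In hypoxia sgXIST7 had 5 XIST counts in its 3 libraries, so that sgXIST9 cells kept more XIST than sgXIST7 cells (log2 difference 7.87, SE 0.81, adjusted p = 3.6e-06, edgeR).

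The promoter of XIST, where sgXIST9 acts, is shown because the knockdown is the starting point of the comparison. XIST lies on the minus strand of chromosome X (hg38, 73820651 to 73852753). The RefSeq window of 250 bases before and 50 after the transcription start is chrX:73852665-73852964 (GRCh38.p14, minus strand), read 5′ to 3′, with the 50 bases from that start on in capitals. The gene span of the deposited counts begins, at 73852753, upstream of this start and within the window.
XIST: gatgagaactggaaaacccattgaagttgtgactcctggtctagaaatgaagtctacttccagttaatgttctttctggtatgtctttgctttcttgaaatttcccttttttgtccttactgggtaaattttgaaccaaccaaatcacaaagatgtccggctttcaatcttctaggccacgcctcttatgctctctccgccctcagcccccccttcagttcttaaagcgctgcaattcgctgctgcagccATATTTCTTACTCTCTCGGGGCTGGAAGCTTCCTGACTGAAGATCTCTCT

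The neighbours of XIST overlapped between the groups. JPX had 11.7, 7.25 and 14.7 CPM in sgCtl and 11.3, 7.53 and 12.4 in sgXIST9, with overlapping groups (log2 fold change -0.10, SE 0.24, adjusted p = 0.79, edgeR). The log2 fold change of FTX was 0.23 (SE 0.20, adjusted p = 0.42, edgeR). JPX (73944324 to 74070382, plus strand) and FTX (74028136 to 74293574, minus strand) overlap. The strand setting of the counting is not given in the sources used here, so their shared reads cannot be assigned with certainty. Of 7 tested genes of the X inactivation center, XIST was the 1 called. Across the 490 tested X-linked genes the median log2 fold change was -0.0023, against -0.01 over all 14938 genes. On chromosome X, 23 genes were called higher and 16 lower, 4.69% and 3.27% of those tested, against 6.14% and 3.39% of all tested genes. Of 22 tested X-linked genes known to escape inactivation, 0 were called (DESeq2 also called 0), and 6 had an unadjusted p under 0.05. UBA1, which encodes the ubiquitin-activating enzyme, had the smallest p of them, with a log2 fold change of -0.61 (SE 0.12, adjusted p = 0.0012), short of the fold threshold. The count of X-linked genes fell to 15 higher without replicate 1 of sgXIST9 and rose to 26 lower without replicate 3 of sgCtl, and was 29 and 21 without replicate 3 of both groups.

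**Figure D1:**
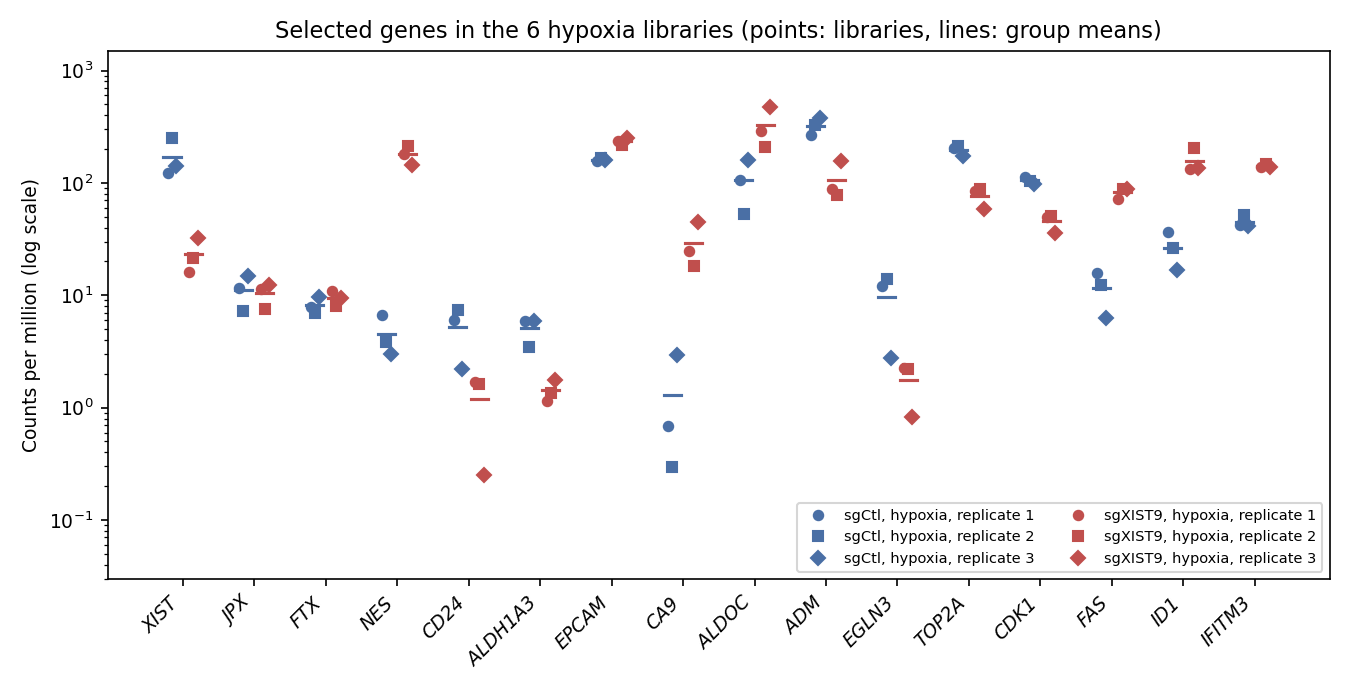
CPM on a log scale (y axis) of 16 genes (x axis) in the 3 sgCtl (blue) and 3 sgXIST9 (red) hypoxia libraries. Symbols mark replicates and short lines group means. XIST sits lower and NES higher in all 3 sgXIST9 libraries, while JPX and FTX overlap.

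Across all genes, sgXIST9 cells under hypoxia had 917 up-regulated and 506 down-regulated genes, 6.14% and 3.39% of the 14938 tested. Calls required, in edgeR's quasi-likelihood test, an adjusted p (Benjamini-Hochberg) under 0.01 together with a log2 fold change beyond 1 in size, and 1423 genes or 9.53% met both in either direction. The median log2 fold change of the calls was 1.88 for those higher and -1.89 for those lower, and 240 and 155 of them exceeded 3 in size. All 3 sgXIST9 libraries were above all 3 sgCtl libraries for 909 of the genes called higher, and all below for 477 of those called lower; over all tested genes the groups were separate in this way for 17.5% and 16.2%. Of the calls, 1223 were protein-coding and 120 were lncRNA genes. Without replicate 3 of the hypoxia groups 1153 genes were higher and 659 lower, and without sgCtl replicate 3 alone 1226 and 774. A fit of only these 6 libraries called 432 and 209. It called 859 and 483 when the replicate number, taken from the data to pair the libraries, entered that fit as a block.

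**Figure D2:**
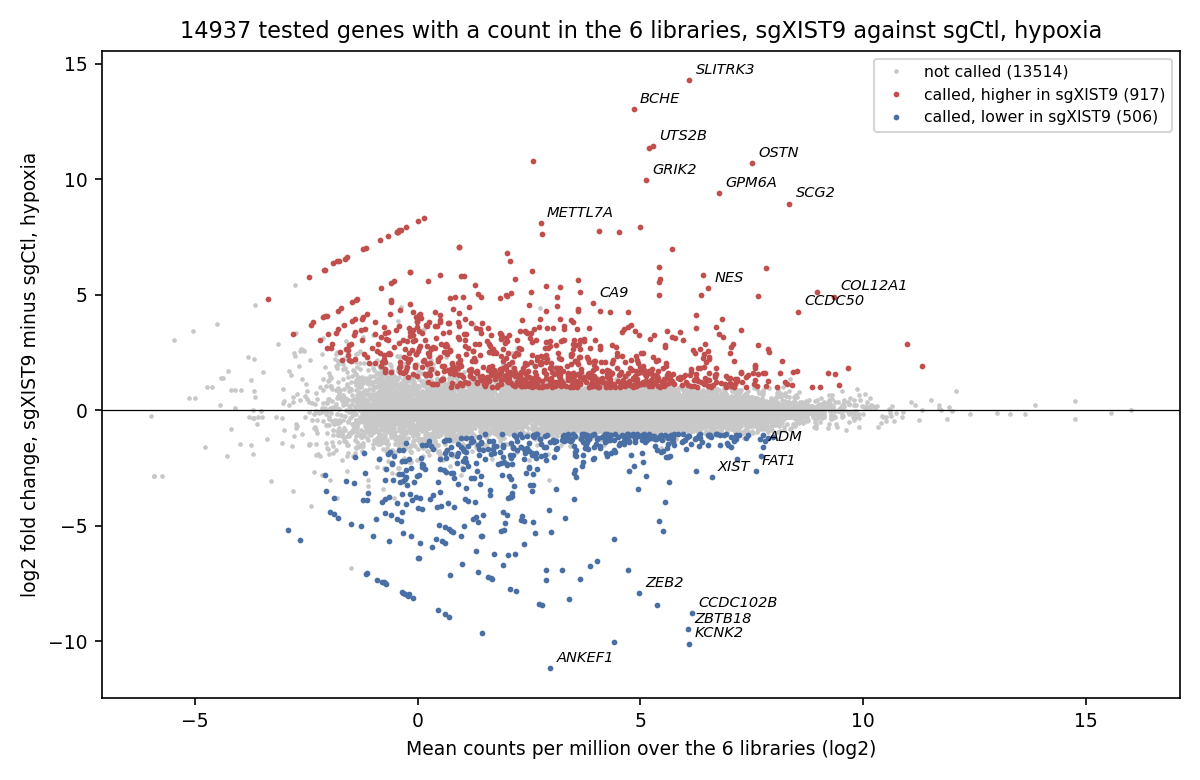
Log2 fold change of sgXIST9 over sgCtl in hypoxia (y axis) against the mean level in log2 CPM (x axis) for 14937 tested genes with a count in the 6 libraries. The 917 genes called higher are red, the 506 called lower blue and the others grey. Values of genes at 0 in a group, which form the straight diagonal edges, depend on the prior count.

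The genes with the largest rises were close to silent in sgCtl. SLITRK3, a synaptic adhesion protein, had 0 counts in each sgCtl library and 123, 139 and 149 CPM in sgXIST9, at least 684-fold higher against a floor of 3 counts in each library. BCHE, which encodes butyrylcholinesterase, was also at 0 in sgCtl and had 37.2, 26.5 and 109 CPM in sgXIST9, at least 287-fold higher. Both lie on chromosome 3. ISLR, an immunoglobulin superfamily protein with leucine-rich repeats, was at least 59.8-fold higher. MYOC, which encodes the secreted glycoprotein myocilin, had 1 count in sgCtl and 4368 in sgXIST9, a ratio of pooled CPM of 3464 (exact 95% interval 621 to 136839, counting error only). GRIK2, a kainate-type glutamate receptor subunit, had 3 counts and 4071, a ratio of 1076 (368 to 5220). METTL7A, a methyltransferase-like protein, had 2 and 838, a ratio of 332 (91.7 to 2748).

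Other strong rises were measured at high counts in sgXIST9. SCG2, which encodes the secretory granule protein secretogranin II, had 1.00, 1.39 and 1.59 CPM in sgCtl and 705, 593 and 655 in sgXIST9 (log2 fold change 8.95, SE 0.28, adjusted p = 3.4e-13). GPM6A, a neuronal membrane glycoprotein, rose from 0.188, 0.397 and 0.354 CPM to 214, 205 and 234 (9.40, SE 0.20, adjusted p = 4.0e-15, edgeR). COL12A1, a fibril-associated collagen, rose from 36.3, 47.1 and 40.6 CPM to 1108, 884 and 1778 (4.92, SE 0.27, adjusted p = 6.4e-10, edgeR). The groups of these 3 genes were far apart, and the highest COL12A1 value was in replicate 3. NR3C1, the glucocorticoid receptor, had 8.31, 7.79 and 2.39 CPM in sgCtl and 444, 426 and 477 in sgXIST9 (6.14, SE 0.34, adjusted p = 9.6e-10, edgeR). The homeobox gene BARX2 rose by 7.95 on the log2 scale, MAP2, the microtubule-associated protein of neurons, by 7.76, METTL7B by 6.97 and PDZK1, a scaffold of membrane transporters, by 5.88. NELL2, a secreted neural glycoprotein, rose by 3.04, the lncRNA LINC01139 by 3.93 and ATP8A1, a phospholipid flippase, by 2.88.

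The strongest falls were of genes well expressed in sgCtl. ZBTB18, a zinc finger transcriptional repressor, had 114, 151 and 138 CPM in sgCtl and 0.0912, 0.318 and 0.126 in sgXIST9 (log2 fold change -9.46, SE 0.28, adjusted p = 2.1e-13, edgeR). KCNK2, a two-pore potassium channel, fell from 107, 124 and 176 CPM to 0.0456, 0.182 and 0.126 (-10.09, SE 0.37, adjusted p = 3.1e-12, edgeR). CCDC102B, a coiled-coil protein, fell from 116, 117 and 194 CPM to 0.41, 0.182 and 0.379. These genes were thus almost absent from every sgXIST9 library. ANKEF1 had 756 counts in sgCtl and 0 in sgXIST9, at least 102-fold lower. SEMA3D, a secreted semaphorin, had 1763 counts and 2, a ratio of 1112 (exact 95% interval 307 to 9186), and DOCK10, a guanine nucleotide exchange factor, 679 and 2, a ratio of 428 (118 to 3542). ARID5B fell by 8.41 on the log2 scale, RHOBTB1 by 8.15, and the noncoding genes SCAT2 and LINC01447 by 7.31 and 6.91.

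Other abundant genes fell by less. FAT1, an atypical cadherin, had 308, 379 and 311 CPM in sgCtl and 50.8, 54.9 and 53.9 in sgXIST9 (log2 fold change -2.65, SE 0.11, adjusted p = 1.1e-11, edgeR). SLC39A8, a zinc transporter, fell by 2.61 on the log2 scale, CALCRL, which forms the adrenomedullin receptor, by 1.67, and ATAD2, a chromatin protein of dividing cells, by 1.5. RHOB, a small GTPase, fell by 1.32, CLIP1, a microtubule plus-end protein, by 1.24 and NFYA, a subunit of the CCAAT-binding factor, by 1.22. PLEKHB2 fell by 1.07 and TK1, the thymidine kinase of S phase, by 1.05, close to the fold threshold of 1; leaving out sgCtl replicate 2 took PLEKHB2 to -0.98, and leaving out sgXIST9 replicate 3 took TK1 to -0.96.

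The stem cell markers that the study follows went in different directions. NES, which encodes nestin, an intermediate filament of neural and other progenitors, had 6.63, 3.87 and 3.01 CPM in sgCtl and 182, 211 and 145 in sgXIST9 (log2 fold change 5.30, SE 0.33, adjusted p = 4.4e-09, edgeR). ALDH1A3, an aldehyde dehydrogenase used as a marker of epithelial-like cancer stem cells, was lower, with 5.94, 3.47 and 5.94 CPM in sgCtl and 1.14, 1.36 and 1.77 in sgXIST9 (-1.84, SE 0.32, adjusted p = 0.00032, edgeR). CD24, a surface glycoprotein of such cells, had 6.0, 7.34 and 2.22 CPM in sgCtl and 1.69, 1.63 and 0.252 in sgXIST9. The groups did not overlap, but CD24 missed the call at a log2 fold change of -2.10 (SE 0.57, adjusted p = 0.01002, edgeR); with replicate number as a block its adjusted p was 0.0028, and without sgCtl replicate 3 it was 0.0018. CD24 has near-identical copies in the genome, and whether reads were split between them was not tested. ALDH1A1, which the paper names beside ALDH1A3 for epithelial-like stem cells of breast cancer, was tested and not called. It had 44610 to 64791 counts in sgCtl and 65129 to 75058 in sgXIST9. These are not scaled to library size, and each sgXIST9 library had more total counts than the same-numbered sgCtl library. The summed level of the 24 listed stem cell markers, most of it ALDH1A1, overlapped between the groups. It was 2892 to 4309 CPM in sgCtl and 3250 to 4291 in sgXIST9.

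EPCAM, an epithelial adhesion molecule, was higher in all 3 sgXIST9 libraries, at 237, 218 and 251 CPM against 156, 165 and 158, with a log2 fold change of 0.56 (SE 0.10, adjusted p = 0.00038, edgeR) below the threshold of 1. CD44 had 0 counts in all 6 libraries, where the limit of 3 counts corresponds to between 0.136 and 0.266 CPM. Of 24 listed stem cell markers 11 were tested. Of these, 1 was called higher (NES) and 3 lower, with a median log2 fold change of -0.77. That is 9.09% and 27.3% of those tested, against 6.14% and 3.39% of all tested genes. NCAM1, a neural cell adhesion molecule, fell by 3.51 on the log2 scale. KLF4, a pluripotency factor, was called lower, but its groups overlapped, from 8.42 to 49.9 CPM in sgCtl and from 7.11 to 12.4 in sgXIST9. Its call was lost without sgCtl replicate 1 or 2 or sgXIST9 replicate 1 or 3 (adjusted p up to 0.023). Without replicate 3 of the hypoxia groups 5 of the markers were lower and 2 higher.

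Of 30 tested HIF targets, 2 were called higher and 2 lower in sgXIST9 under hypoxia, 6.67% in each direction against 6.14% and 3.39% of all tested genes. The median log2 fold change was -0.14. Their summed level was 11758 to 14636 CPM in sgCtl and 10150 to 14427 in sgXIST9. CA9, the carbonic anhydrase of the cell surface that hypoxia induces, had 0.688, 0.298 and 2.92 CPM in sgCtl and 24.9, 18.1 and 44.9 in sgXIST9 (4.65, SE 0.56, adjusted p = 9.2e-06, edgeR). ALDOC, a glycolytic aldolase, had 106, 52.5 and 159 CPM in sgCtl and 287, 207 and 479 in sgXIST9 (1.62, SE 0.39, adjusted p = 0.0050, edgeR). Both were highest in replicate 3 of their group, and the groups did not overlap. ALDOC was not called without sgCtl replicate 1 or 2 or sgXIST9 replicate 1 or 3 (adjusted p up to 0.040).

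The other pair was lower. ADM, which encodes the vasodilator peptide adrenomedullin, had 266, 325 and 380 CPM in sgCtl and 88.1, 77.7 and 156 in sgXIST9 (log2 fold change -1.60, SE 0.24, adjusted p = 9.9e-05, edgeR). CALCRL, through which this peptide acts, fell as well, from 96.4, 86.5 and 116 CPM to 33.6, 33.7 and 26.3. EGLN3, a HIF prolyl hydroxylase, had 12.1, 13.9 and 2.75 CPM in sgCtl and 2.23, 2.22 and 0.82 in sgXIST9 (-2.43, SE 0.47, adjusted p = 0.00079, edgeR), lowest in replicate 3 of both groups. Without replicate 3 of the hypoxia groups 1 target was called higher and 4 lower. Of 21 tested glycolysis and lactate export genes 1 was called higher, which was ALDOC. That is 4.76% of the list, against 6.14% of all tested genes.

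The promoters of these 4 genes are shown because their genes moved in opposite directions while sharing a place among HIF targets. HIF binds the core sequences ACGTG and GCGTG. These were searched on both strands of the RefSeq windows from 250 bases before to 50 after the start, where matches may overlap, and each match is in capitals. Of 35116 such windows 48.4% hold at least 1 match. Among the listed HIF targets, 25 have such a window and 23 of these have at least 1 match. The windows are chr9:35673678-35673977 (plus strand), chr11:10304823-10305122 (plus strand), chr14:33951025-33951324 (minus strand) and chr17:28576846-28577145 (minus strand), all of GRCh38.p14.
CA9: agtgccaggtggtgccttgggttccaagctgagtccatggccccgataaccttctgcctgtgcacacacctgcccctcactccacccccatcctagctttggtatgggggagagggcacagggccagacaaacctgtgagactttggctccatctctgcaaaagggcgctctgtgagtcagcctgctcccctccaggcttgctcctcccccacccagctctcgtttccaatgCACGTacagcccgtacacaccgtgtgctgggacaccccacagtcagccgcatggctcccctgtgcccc
ADM: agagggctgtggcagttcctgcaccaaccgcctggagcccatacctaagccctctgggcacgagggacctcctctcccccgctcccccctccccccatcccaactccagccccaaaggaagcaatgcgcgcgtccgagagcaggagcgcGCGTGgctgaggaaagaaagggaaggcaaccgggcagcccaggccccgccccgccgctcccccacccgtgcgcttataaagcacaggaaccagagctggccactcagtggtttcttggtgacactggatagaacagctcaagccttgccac
EGLN3: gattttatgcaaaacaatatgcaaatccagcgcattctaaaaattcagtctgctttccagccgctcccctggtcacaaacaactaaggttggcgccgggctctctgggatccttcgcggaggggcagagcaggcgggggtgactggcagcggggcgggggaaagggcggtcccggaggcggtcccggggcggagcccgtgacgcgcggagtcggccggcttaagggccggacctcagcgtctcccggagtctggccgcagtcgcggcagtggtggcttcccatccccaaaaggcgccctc
ALDOC: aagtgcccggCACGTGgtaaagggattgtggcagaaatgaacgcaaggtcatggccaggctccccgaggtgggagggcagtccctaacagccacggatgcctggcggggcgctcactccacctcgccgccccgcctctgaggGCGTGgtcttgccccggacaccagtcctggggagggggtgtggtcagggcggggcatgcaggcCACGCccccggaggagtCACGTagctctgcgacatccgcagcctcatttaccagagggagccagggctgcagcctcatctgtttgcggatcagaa

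The CA9 window holds 1 match, 18 bases before the start, and the ADM window 1, 101 bases before it. The ALDOC window holds 5, of which 2 overlap in a palindrome, and the EGLN3 window holds 0. A match is a description of these letters alone, and HIF binding elsewhere is not covered by them.

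Proliferation genes were lower in sgXIST9 under hypoxia. Of 28 tested, 10 were called lower and 0 higher (0 also by DESeq2), and all 28 had a negative log2 fold change, with a median of -0.80 against -0.01 over all genes. The 10 are 35.7% of the list, against 3.39% of all tested genes. Of all 14938 tested genes, 7631 had a negative log2 fold change. The summed level of the list was 2452 to 3050 CPM in sgCtl and 1273 to 1733 in sgXIST9, with no overlap. TOP2A, the topoisomerase of replicating cells, had 204, 211 and 173 CPM in sgCtl and 84.6, 88.0 and 58.6 in sgXIST9 (-1.35, SE 0.14, adjusted p = 2.3e-06, edgeR). CDK1, the kinase that drives mitotic entry, had 114, 105 and 98.6 CPM and 49.6, 50.9 and 35.9 (-1.22, SE 0.14, adjusted p = 7.0e-06, edgeR). BUB1 of the spindle checkpoint fell by 1.10 on the log2 scale and TPX2, a spindle assembly factor, by 1.08. The TPX2 call was lost without sgCtl replicate 2 or sgXIST9 replicate 3. The median level of the list was lowest in replicate 3 of sgXIST9.

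The other 6 genes called lower were CDC20, CCNA2, PLK1, AURKA, KIF20A and MKI67, of which CDC20, PLK1, AURKA and KIF20A act in mitosis. The count of 10 was 4 without sgCtl replicate 2, 5 without sgXIST9 replicate 3 and 3 in a fit of only the 6 libraries. It was 9 in that fit with the replicate block and 9 without replicate 3 of the hypoxia groups. In bulk RNA, fewer cells of a kind and less RNA per cell cannot be told apart. In normoxia 0 of the 28 genes were called, also by DESeq2, and 7 had an unadjusted p under 0.05, with a median of -0.09.

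Of 20 tested cell cycle inhibitors and G1 genes, 1 was called higher and 4 lower, with a median of -0.49. These are 5% and 20% of the list, against 6.14% and 3.39% of all tested genes. Without replicate 3 of the hypoxia groups 6 were lower. CDKN2C, the CDK4 and CDK6 inhibitor p18, had 10.6, 8.63 and 10.2 CPM in sgCtl and 45.8, 59.7 and 43.7 in sgXIST9 (log2 fold change 2.35, SE 0.17, adjusted p = 2.6e-08, edgeR). BTG1, an antiproliferative factor, fell by 1.56 on the log2 scale and CCNE2, a cyclin of the G1/S transition, by 1.09. The CDK inhibitor gene CDKN1A was also called lower, as was CCND2, a G1 cyclin. The calls of CCNE2 and CCND2 depended on single libraries: CCNE2 was at -0.94 without sgCtl replicate 1 and at -0.96 without sgXIST9 replicate 3, and CCND2 was not called without sgCtl replicate 2 or 3 or sgXIST9 replicate 1 or 2.

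Of 24 tested genes that promote cell death, 2 were called higher and 0 lower (0 also by DESeq2, 8 lower at an unadjusted p under 0.05), with a median of -0.19, and of 14 that restrain it, 1 was higher and 1 lower, with a median of 0.10. These are 8.33% of the first list higher and 7.14% of the second in each direction, against 6.14% and 3.39% of all tested genes. FAS, a death receptor, had 15.8, 12.5 and 6.29 CPM in sgCtl and 71.5, 88.4 and 89.1 in sgXIST9 (log2 fold change 2.83, SE 0.25, adjusted p = 2.3e-07, edgeR). TNFSF10, which encodes the death ligand TRAIL, rose by 1.66 on the log2 scale, and TNFRSF10C, a decoy receptor for TRAIL, by 3.04 at about 1 CPM. BIRC5, which encodes survivin, an inhibitor of apoptosis that also acts in mitosis, had 52.3, 64.5 and 35.0 CPM in sgCtl and 20.9, 24.3 and 17.5 in sgXIST9 (-1.28, SE 0.20, adjusted p = 0.00011, edgeR). Both receptors and the ligand were separate between the groups, as was BIRC5. Without sgCtl replicate 3, 2 death-promoting genes were called lower.

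**Figure D3:**
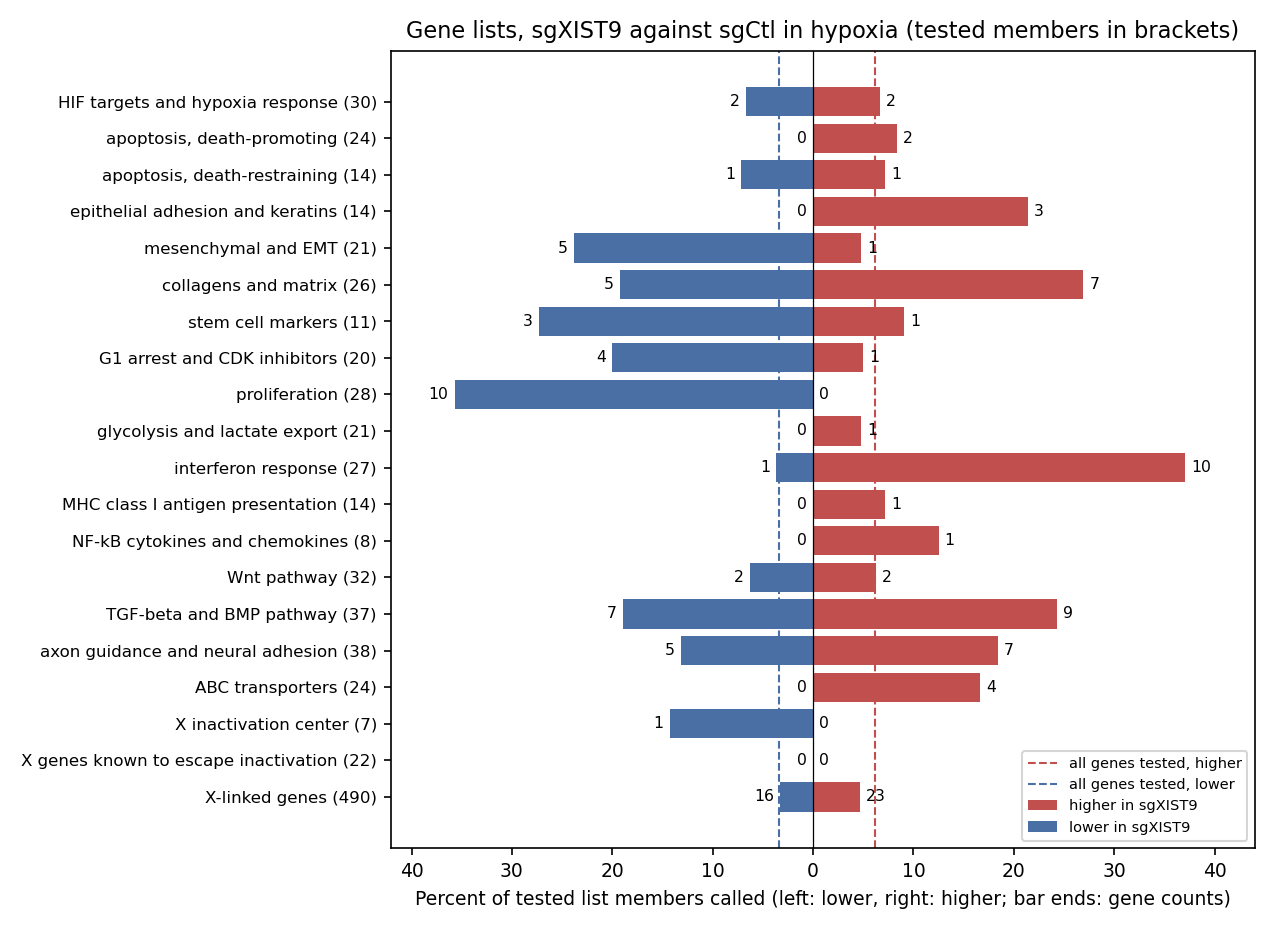
Percent of the tested members of each gene list called lower (blue, to the left) or higher (red, to the right) in sgXIST9 under hypoxia, with the number of genes at the bar ends and the number tested in brackets. Dashed lines mark 3.39% and 6.14%, the shares over all tested genes. Proliferation has 10 genes lower and 0 higher, and the interferon response 10 higher and 1 lower.

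Of 14 tested epithelial genes, 11 had a positive log2 fold change. The summed level of the 30 listed was 527 to 584 CPM in sgCtl and 670 to 760 in sgXIST9, with no overlap. EPCAM, KRT18, DSP and PKP3 made up most of this sum in each library. Of the 14 tested genes, 3 were called higher and 0 lower (0 also by DESeq2, 2 lower at an unadjusted p under 0.05), with a median log2 fold change of 0.33. Over all 14938 tested genes, 7306 had a positive log2 fold change. The 3 are 21.4% of the list, against 6.14% of all tested genes. TJP3, a tight junction protein, had 1.63, 1.04 and 3.46 CPM in sgCtl and 19.1, 15.5 and 31.4 in sgXIST9 (3.51, SE 0.34, adjusted p = 6.9e-07, edgeR). KRT8, a keratin of simple epithelia, rose by 2.14 on the log2 scale and OVOL2, a repressor of mesenchymal genes, by 2.75. CDH1, the epithelial cadherin, was too low to be tested. KRT8 has processed copies in the genome, and whether reads were split between them was not tested.

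Of 21 tested mesenchymal genes, 5 were called lower and 1 higher, with a median of -0.04. These are 23.8% and 4.76% of the list, against 3.39% and 6.14% of all tested genes. The transcription factors ZEB2 and TWIST1, both inducers of the epithelial-mesenchymal transition, were nearly lost. ZEB2 had 51.6, 51.8 and 83.8 CPM in sgCtl and 0.319, 0.136 and 0.316 in sgXIST9 (log2 fold change -7.91, SE 0.35, adjusted p = 3.3e-11, edgeR), and TWIST1 fell by 5.21 on the log2 scale. CNN1, a calponin of smooth muscle, had 134 counts in sgCtl and 3 in sgXIST9, a ratio of 56.3 (exact 95% interval 18.9 to 277). The opposite was seen for ACTA2, the smooth muscle actin, which had 47.4, 35.8 and 14.4 CPM in sgCtl and 133, 185 and 142 in sgXIST9 (2.22, SE 0.34, adjusted p = 9.2e-05, edgeR). VIM, which encodes vimentin and was picked with its values in view, had 41193, 53058 and 46922 counts in sgCtl and 113182, 106693 and 109353 in sgXIST9, with a log2 fold change of 0.85 below the threshold. The summed level of the list was 4581 to 5802 CPM in sgCtl and 7784 to 9237 in sgXIST9. VIM made up most of this sum in each of the 6 libraries, while 12 of the 21 tested genes had a negative log2 fold change. The number called higher was 4 without sgCtl replicate 3, 3 without replicate 3 of both groups, and 2 with the replicate block.

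Collagens and matrix genes changed in both directions, with 7 higher and 5 lower of 26 tested and a median of 0.07. These are 26.9% and 19.2% of the list, against 6.14% and 3.39% of all tested genes. COL1A2, a chain of type I collagen, had 0.125, 0.248 and 0.266 CPM in sgCtl and 31.6, 34.9 and 69.9 in sgXIST9 (log2 fold change 7.70, SE 0.62, adjusted p = 9.2e-08, edgeR), and COL1A1, its partner chain, rose by 4.91 on the log2 scale. NID1, a basement membrane linker, rose by 3.69, and FBN1, the microfibril protein fibrillin 1, by 3.85. FBN2, COL4A1, COL4A2, LAMA1 and TNC were the 5 called lower, of which COL4A1, COL4A2 and LAMA1 encode basement membrane chains. COL1A1, COL1A2 and DCN are also on the list of fibroblast markers, of which 4 of 10 were tested, 2 were higher and 1, DCN, was lower. COL3A1 of that list had at least 5639 counts in each library, while PDPN was at 0 and PDGFRB had at most 6 counts. The summed level of the fibroblast list was 736 to 999 CPM in sgCtl and 430 to 672 in sgXIST9. COL3A1 made up most of that sum in each library. A part of other cells in these values was not tested.

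Interferon response genes were more often higher than lower: 10 of 27 tested were called higher and 1 lower, with a median log2 fold change of 0.54. These are 37.0% and 3.70% of the list, against 6.14% and 3.39% of all tested genes. IFITM3, a membrane protein that restricts viral entry, had 42.4, 51.6 and 41.6 CPM in sgCtl and 138, 146 and 138 in sgXIST9 (1.64, SE 0.12, adjusted p = 1.6e-08, edgeR). Its neighbours IFITM2 and IFITM1 rose by 3.09 and 4.41 on the log2 scale, and IFI44L, another interferon-induced gene, by 3.33. The IFITM genes are close copies, so reads may have been split between them. CMPK2, IFIT3, RSAD2, OAS2, XAF1 and IFI44 were also called higher, and BST2, which encodes tetherin, lower. Summed levels overlapped, at 696 to 769 CPM in sgCtl and 643 to 838 in sgXIST9. The number higher was 12 without replicate 3 of the hypoxia groups and 6 in a fit of only the 6 libraries.

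Of all 14938 tested genes, 7306 had a positive log2 fold change and 6.14% were called higher. Of 14 tested genes of MHC class I antigen presentation, 13 had a positive log2 fold change and the median was 0.52, but 1 was called, 7.14% of the list. This was NLRC5, the transactivator of these genes, at a log2 fold change of 1.01 (SE 0.16, adjusted p = 0.00014, edgeR), and it fell to 0.86 when a library was left out. The calls without sgCtl replicate 1 and without sgXIST9 replicate 2 numbered 0, and DESeq2 also called 0, while 2 were called without replicate 3 of the hypoxia groups. Of 8 tested NF-kB cytokine and chemokine genes, 1 was called, CSF1, the macrophage growth factor, which rose by 2.11 on the log2 scale. That 1 gene is 12.5% of the tested list, against the 6.14% of all tested genes.

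Members of the TGF-beta and BMP pathway changed in both directions, with 9 higher and 7 lower of 37 tested and a median of -0.25. These are 24.3% and 18.9% of the list, against 6.14% and 3.39% of all tested genes. INHBA, TGFB2, BMP7, BMP5 and GDF6, which encode ligands or their subunits, were called lower, and INHA, which encodes another such subunit, higher. INHBA, which encodes an activin subunit, had 22.3, 15.7 and 5.85 CPM in sgCtl and 0, 0.136 and 0.126 in sgXIST9 (log2 fold change -7.34, SE 0.70, adjusted p = 6.8e-07, edgeR), and TGFB2, a TGF-beta ligand, 15.9, 10.2 and 4.87 CPM and 0.228, 0.182 and 0.126 (-5.78, SE 0.65, adjusted p = 4.1e-06, edgeR). BMP7 had 27.9, 35.8 and 27.9 CPM in sgCtl and 9.57, 8.58 and 5.11 in sgXIST9 (-1.97, SE 0.24, adjusted p = 9.6e-06, edgeR). The receptors ACVR2A and TGFBR2 were also called lower. The ID genes, targets of BMP signalling, were higher: ID1 had 36.4, 26.4 and 16.8 CPM in sgCtl and 134, 203 and 136 in sgXIST9 (2.56, SE 0.28, adjusted p = 2.6e-06, edgeR), and ID2, ID3 and ID4 were called with it. SMAD4, SMAD6 and SMAD9, signal transducers and an inhibitor of the pathway, and NOG, a secreted BMP antagonist, were also called higher.

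In the Wnt pathway 2 of 32 tested genes were called higher and 2 lower, with a median of 0.13. This is 6.25% in each direction, against 6.14% higher and 3.39% lower of all tested genes, so the share higher was near that of all genes. DKK2, a secreted modulator of Wnt receptors, had 9.19, 4.42 and 2.48 CPM in sgCtl and 0.137, 0.0908 and 0.126 in sgXIST9 (log2 fold change -5.45, SE 0.78, adjusted p = 5.2e-05, edgeR). SFRP1, a secreted Wnt antagonist, fell by 1.23 on the log2 scale and was at -0.94 without sgXIST9 replicate 3. RNF43, which removes Wnt receptors from the surface, rose by 2.0 and the ligand WNT3A by 3.40 at about 1 CPM, a call that was lost without sgCtl replicate 2. The number lower was 5 without sgCtl replicate 3 and 1 without sgXIST9 replicate 3.

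Of 38 tested genes of axon guidance and neural adhesion, 7 were called higher and 5 lower, 18.4% and 13.2% against 6.14% and 3.39% of all tested genes, with a median of 0.32. Without replicate 3 of the hypoxia groups these were 9 and 7. NLGN1, EFNA5, L1CAM and EPHA3 were among those called higher, with GPM6A and SLITRK3, and NTN1, GPM6B and SEMA3A lower beside SEMA3D and NCAM1. The number lower was 2 without sgCtl replicate 2, without sgXIST9 replicate 1, and in the fit of the 6 libraries with the replicate block. Of 12 neural cell markers 4 were tested and MAP2 was the 1 called; SNAP25, SOX10 and STMN2 were at 0 in the 6 libraries, and the summed level of the list was 162 to 227 CPM in sgCtl and 149 to 204 in sgXIST9.

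Of 24 tested ABC transporters 4 were called higher and 0 lower (0 also by DESeq2, 2 lower at an unadjusted p under 0.05), with a median of 0.34. The 4 are 16.7% of the list, against 6.14% of all tested genes. ABCC6 rose by 3.33 on the log2 scale and ABCA1, which exports cholesterol, by 2.88. ABCD2 overlapped between the groups, and ABCC3 had 1 count in sgCtl and 16 in sgXIST9, a ratio of 12.7 (exact 95% interval 1.97 to 532). Without sgCtl replicate 1 or without sgXIST9 replicate 2 the count of 4 was 2. ABCG2 and ABCB1, the transporters most tied to dye efflux, had at most 2 counts in each of the 18 libraries. ESR1, the estrogen receptor, was the 1 gene called on the ovarian list, with 0 counts in sgCtl and 27 in sgXIST9, at least 2.33-fold higher; the call was lost without sgCtl replicate 1 or 2 or sgXIST9 replicate 1.

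To see which differences depended on oxygen, the same contrast was taken in normoxia, with separate libraries. There 587 genes were higher and 563 lower in sgXIST9, 3.93% and 3.77% of those tested. Of the genes higher in hypoxia, 436 were higher in normoxia as well, 47.5% of the hypoxia list and 74.3% of the normoxia list. Of those lower in hypoxia, 282 were lower in normoxia, 55.7% and 50.1%. GPR132, picked with its values in view, was the 1 gene called in opposite directions (2.48 in hypoxia and -2.13 in normoxia). XIST was called in both, and its log2 fold changes of -2.88 and -3.41 did not differ past the threshold (difference 0.53, SE 0.57, adjusted p = 0.64, edgeR).

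A call under 1 condition does not show a difference between conditions, so the difference of the 2 log2 fold changes was tested directly. This response difference was called for 151 genes, 99 with a higher value in hypoxia and 52 with a lower one, 0.663% and 0.348% of those tested and 1.01% together. Of the 481 genes called higher in hypoxia but not in normoxia, 34 had a called response difference, as had 21 of the 224 called lower in hypoxia but not in normoxia. Of the 99 genes, 50 were called lower in normoxia and 42 higher in hypoxia. The count depended strongly on sgCtl replicate 3, without which it was 469 and 256, while leaving out other libraries gave as few as 40 and 17.

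**Figure D4:**
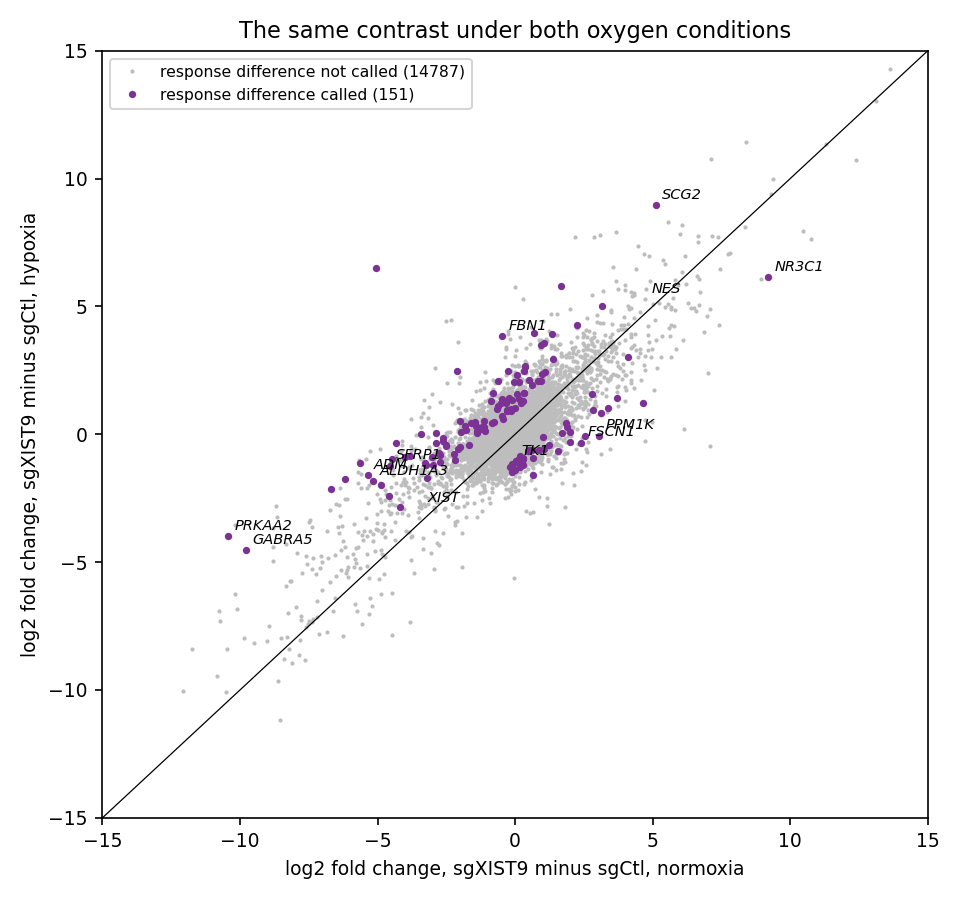
Log2 fold change of sgXIST9 over sgCtl in hypoxia (y axis) against that in normoxia (x axis) for 14938 genes, with the line of equal values. The 151 genes with a called response difference are purple. PRKAA2 and GABRA5 were less reduced in hypoxia, and SCG2 was raised more.

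The largest positive response differences belonged to genes of several kinds. PRKAA2, the alpha 2 catalytic subunit of AMP-activated protein kinase, had a log2 fold change of -3.97 in hypoxia and of -10.43 in normoxia, a difference of 6.46 (SE 0.83, adjusted p = 0.00040, edgeR). In normoxia it averaged 80.5 CPM in sgCtl and 0.0538 in sgXIST9, and in hypoxia 87.9 and 5.61. GABRA5, a GABA receptor subunit, had a response difference of 5.24 (SE 0.88, adjusted p = 0.0031, edgeR), which missed the threshold without some libraries, at adjusted p up to 0.016. FBN1 averaged 0.791 and 0.570 CPM in sgCtl and sgXIST9 in normoxia and 1.51 and 21.1 in hypoxia, a response difference of 4.32 (SE 0.64, adjusted p = 0.0014, edgeR). SCG2 averaged 11.7 and 401 CPM in normoxia and 1.33 and 651 in hypoxia (3.84, SE 0.32, adjusted p = 1.1e-05, edgeR). MEGF6 was lower in normoxia, at 6.08 and 0.535 CPM, and averaged 10.6 and 10.7 in hypoxia.

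ADM was among them, with 287 and 7.0 CPM in normoxia and 324 and 107 in hypoxia, so that its shortfall in sgXIST9 was 3.76 smaller on the log2 scale under hypoxia (SE 0.36, adjusted p = 3.7e-05, edgeR). ALDH1A3 behaved in the same way, with 6.91 and 0.184 CPM in normoxia and 5.12 and 1.42 in hypoxia (3.31, SE 0.53, adjusted p = 0.0022, edgeR). For CD24 the means were 1.33 and 0.0846 CPM in normoxia and 5.19 and 1.19 in hypoxia, and the response difference of 1.78 did not pass (SE 1.07, adjusted p = 0.36, edgeR). The secreted factors SFRP1 and BMP7 had response differences of 3.33 and 2.90. TJP3 and CDKN2C, higher in hypoxia, had differences of 2.57 and 1.37.

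Of the 52 negative response differences, 19 were of genes called higher in normoxia and 21 of genes called lower in hypoxia. FSCN1, the actin-bundling protein fascin, averaged 8.46 and 44.8 CPM in normoxia and 120 and 95.9 in hypoxia (-2.73, SE 0.28, adjusted p = 6.6e-05, edgeR). PPM1K, a mitochondrial phosphatase, MAFA, a transcription factor, and DUSP5, a MAP kinase phosphatase, were called for the difference as well, at -3.11, -2.58 and -2.31. EPS8L2 rose in both, by less in hypoxia (-2.34). NR3C1 rose under both conditions, and its difference of -3.05 was lost without several libraries (adjusted p up to 0.016). Among proliferation genes TPX2, BIRC5, TK1 and CCNE2 had log2 fold changes of 0.07, 0.18, 0.02 and 0.23 in normoxia and were called lower in hypoxia, with response differences of -1.15, -1.46, -1.07 and -1.32, of which BIRC5, TK1 and CCNE2 come from other lists or rules. The median response difference of the 28 proliferation genes was -0.61, against 0.04 over all genes, with 1 of 28 called.

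The comparison of sgXIST7 under hypoxia shares its sgCtl libraries with this one, so its values are given side by side and the guides were compared directly. Between them 358 genes were higher in sgXIST9 and 308 lower, 2.4% and 2.06% of those tested. The largest differences included OSTN, GRIK2 and UTS2B, which against sgCtl had log2 fold changes of 10.71, 9.97 and 11.45 in sgXIST9 and 1.47, 1.30 and 2.29 in sgXIST7. METTL7A was at 8.12 and 2.34. NR2F2, a nuclear receptor, was level in sgXIST9 (0.31) and at -7.52 in sgXIST7. In the other direction TGFBR2, the TGF-beta receptor, was at -3.97 in sgXIST9 and 3.37 in sgXIST7, ARMCX3 of chromosome X at -3.83 and 2.05, CDH10, a cadherin, at 2.65 and 9.20, and CRB1 at 2.07 and 7.86. ALPK2 had 0 counts in sgXIST9 and 2 in sgCtl.

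Some of the genes named above were close under both guides and others were not. GPM6A was at 9.40 in sgXIST9 and 9.78 in sgXIST7, MYOC at 11.37 and 10.71, ZBTB18 at -9.46 and -9.62, KCNK2 at -10.09 and -9.21, FAS at 2.83 and 3.27 and CA9 at 4.65 and 4.37. For these 6 genes the difference between the guides was not called. NES was at 5.30 and 3.15 and differed (2.15, SE 0.28, adjusted p = 4.3e-05, edgeR). SCG2 was at 8.95 and 4.95 and differed by 3.99 (SE 0.21, adjusted p = 9.4e-10, edgeR). ZEB2 was at -7.91 and -3.50 and differed by -4.41 (SE 0.37, adjusted p = 2.7e-07, edgeR). SLITRK3, BCHE, ISLR and BARX2 were also called between the guides, each higher in sgXIST9. CDKN2C was at 2.35 and 0.10 and differed by 2.25 (SE 0.17, adjusted p = 9.0e-08, edgeR). For EPCAM the difference was 0.02 (SE 0.10, adjusted p = 0.91, edgeR) and for ALDH1A3 -0.03 (SE 0.33, adjusted p = 0.97, edgeR).

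The positions of the changed genes were examined after the values were seen, and 3 stretches stood out. On chromosome 3 (hg38), OSTN, which encodes the secreted peptide osteocrin, lies at 191199241 to 191265614 on the plus strand, UTS2B, a urotensin peptide gene, at 191267168 to 191330536 on the minus strand and CCDC50, a ubiquitin-binding adaptor, at 191329394 to 191398659 on the plus strand. OSTN had 3, 5 and 2 counts in sgCtl and 7613, 5613 and 7816 in sgXIST9. UTS2B had 0, 0 and 1 counts and 1603, 2153 and 1016, a ratio of pooled CPM of 3784 (exact 95% interval 679 to 149493). CCDC50 rose from 36.1, 37.5 and 36.4 CPM to 653, 656 and 821 (log2 fold change 4.28, SE 0.12, adjusted p = 2.0e-13, edgeR). These neighbours rose together in all 3 sgXIST9 libraries, as did OSTN-AS1, which overlaps OSTN, with 0 counts in sgCtl and 28, 21 and 18 in sgXIST9.

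On either side the changes were smaller. IL1RAP, at 190514085 to 190659750, was at 1.47 (SE 0.34, adjusted p = 0.0031, edgeR), FGF12, at 192139391 to 192727541, at 0.99, and MB21D2 beyond it at -0.17. In sgXIST7 the CCDC50 value was -0.10, and between the guides CCDC50 differed by 4.37 (SE 0.13, adjusted p = 4.5e-13, edgeR). UTS2B and CCDC50 overlap head to head, and the strand setting of the counting is not given in the sources used here, so reads of overlapping genes cannot be assigned with certainty.

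Chromosome 2 carried a broad, shallow shift. Of its 997 tested genes 50 were called higher and 76 lower, and the median log2 fold change was -0.25, where the other chromosomes lay between -0.05 and 0.11. In windows of 10 Mb with at least 20 tested genes, all 14 windows of chromosome 2 from 90 Mb on had a negative median, from -0.31 to -0.68, in hypoxia, and from -0.39 to -0.86 in normoxia. The 609 tested genes of this stretch had a median of -0.51, 498 of them lower in sgXIST9, while the 388 genes before it had a median of 0.03. The medians were -0.48, -0.52 and -0.44 in the 3 sgXIST9 libraries. ZEB2, DOCK10, RHOB and SCG2 are all on chromosome 2, of which RHOB lies before 90 Mb. The stretch had a median of -0.52 in normoxia and, against the same sgCtl libraries, of -0.52 in sgXIST7.

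Chromosome 7 carried the opposite over a shorter stretch. Between 66 and 77 Mb, 64 of 71 tested genes were higher in sgXIST9, with 20 called higher and 1 lower and a median log2 fold change of 0.75, a ratio of 1.69. The other 650 genes of the chromosome had a median of 0.01. The medians were 0.59, 0.55 and 0.79 in the 3 sgXIST9 libraries, 0.77 in normoxia and 0.85 in sgXIST7. Of 255 windows over all chromosomes, 9 had a median beyond 0.5 in size, of which 8 were on chromosome 2 and 1 on chromosome 7. The counts measure RNA, and the DNA content of the cells was not analysed here.

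**Figure D5:**
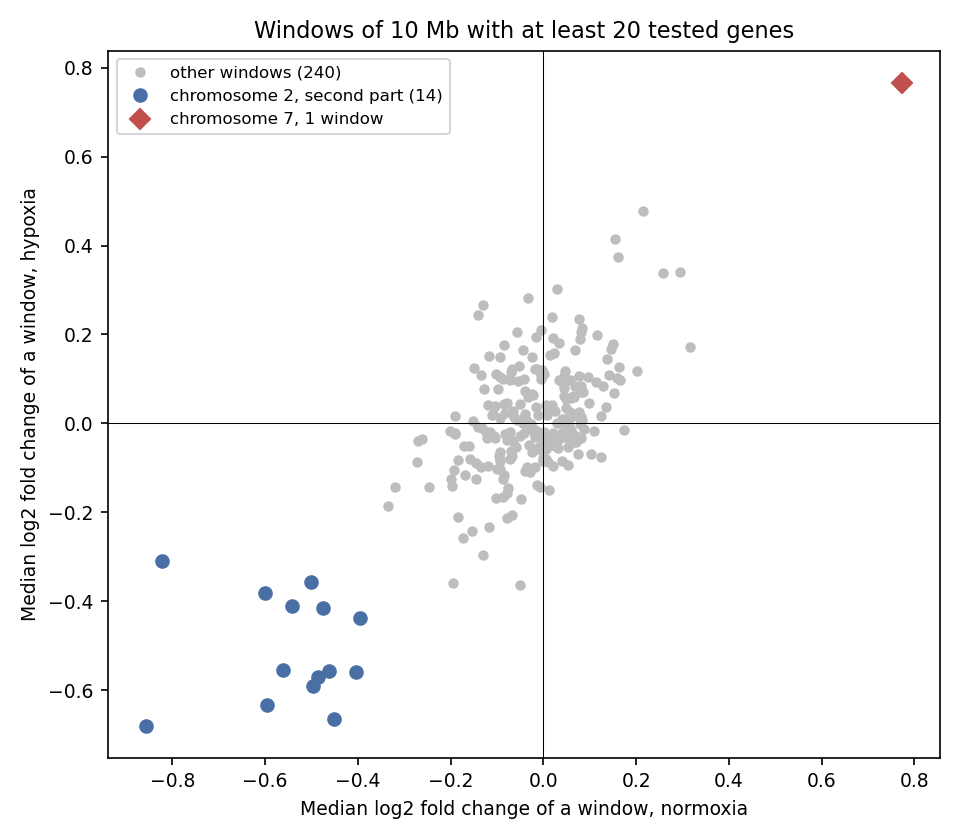
Median log2 fold change of sgXIST9 over sgCtl in hypoxia (y axis) against that in normoxia (x axis) for 255 windows of 10 Mb with at least 20 tested genes. The 14 windows of the second part of chromosome 2 (blue) lie between -0.31 and -0.68 in hypoxia, and 1 window of chromosome 7 (red) lies at 0.77 in both.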

How the data were processed

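RNA was measured in 18 libraries of 6 groups of 3 replicates, which the study describes as biological replicates. The authors depleted ribosomal RNA, prepared stranded paired-end libraries, trimmed reads with Trimmomatic, used FastQC for quality, mapped them with HISAT2 (hg38) and used featureCounts to count them per gene. The deposited values are raw counts per gene, and the authors tested them with DESeq2. Tool versions and the strand setting of the counting are not given in the sources used here. Of 28279 deposited lines, 2 broken ones were left out, so 28277 genes remained.

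Counts were scaled by TMM and tested with edgeR 4.0.16 in R 4.3.3 (limma 3.58.1), in 1 quasi-likelihood fit of all 18 libraries with a mean for each group. The edgeR filter on low counts (filterByExpr, minimum count 10, minimum total 15) left 14938 genes. Calls needed a log2 fold change beyond 1 in size at a Benjamini-Hochberg adjusted p under 0.01. Where a group had 0 counts, the fold is a bound against 3 counts in each library, and with 1 to 3 counts it is a ratio of pooled CPM with an exact 95% interval, which covers counting error only. The code was tested on simulated data. The genes and gene lists were chosen with earlier results of these data known.

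Genes named were those the study follows, the 12 with the largest change in each direction among calls with separate groups and a mean of at least 100 counts, the 12 with the smallest adjusted p in each direction at a mean of at least 1000 counts, up to 4 called genes of each list, and the 6 largest response differences and 6 largest differences from sgXIST7 in each direction. Not every one of them is described, and 1 called gene is not reported here.

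Same-numbered sgXIST9 and sgCtl hypoxia libraries deviated together from their group means (Pearson's r across 9787 genes of 0.372, 0.646 and 0.638), so the replicate numbers were taken to pair them, from the data and not from a label. Differently numbered hypoxia libraries of these groups lay between -0.623 and 0.313, the highest being sgXIST9 replicate 2 with sgCtl replicate 1. In normoxia the same-numbered libraries were at 0.007, 0.123 and 0.298, so the pairing remains an assumption. Alternatives were DESeq2 1.42.0, other normalizations and filters, a replicate block, a fit of the compared groups only, an adjusted p under 0.05, and leaving out libraries. The fit of the 6 libraries with the block was added after the data were seen.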

Additional observations from a re-analysis of the deposited data

Results flagged for a closer look

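The log2 fold change of sgXIST9 over sgCtl cells differed between hypoxia and normoxia for 151 genes by a direct test of the difference. It was higher in hypoxia for 99 of them and lower for 52. Among the genes named in the report, the response difference was positive for PRKAA2 (6.46), GABRA5 (5.24), FBN1 (4.32), SCG2 (3.84), ADM (3.76), MEGF6 (3.45), SFRP1 (3.33), ALDH1A3 (3.31), BMP7 (2.90), CRB1 (2.71), TJP3 (2.57) and CDKN2C (1.37). It was negative for PPM1K (-3.11), NR3C1 (-3.05), FSCN1 (-2.73), MAFA (-2.58), EPS8L2 (-2.34), DUSP5 (-2.31), BIRC5 (-1.46), CCNE2 (-1.32), TPX2 (-1.15), TK1 (-1.07) and NELL2 (-1.05). All are differences of log2 fold changes called by edgeR at an adjusted p under 0.01. The level of hypoxia response was highest in replicate 3 of both hypoxia groups, and the part of that in these differences was not tested.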

How the results depend on the processing

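Over 123 results on named genes and 2028 values under alternatives, 1937 kept their direction and their side of the threshold, 80 lost and 7 gained a call, and 4 changed sign. The sign changes were of uncalled genes: JPX, at -0.10, was at 0.14 without sgCtl replicate 3 and 0.08 without sgXIST9 replicate 2 (range -0.34 to 0.14 without single libraries), and CD68, at 0.19, was at -0.04 without sgCtl replicate 2 and -0.11 without sgXIST9 replicate 3 (range -0.11 to 0.63). XIST stayed called, between -3.19 and -2.51 when single libraries were left out. The replicate block gave 974 genes higher and 561 lower against 917 and 506, and among named genes it changed the call of CD24 alone. A fit of only the 6 libraries gave 432 and 209. Leaving out single libraries gave 755 to 1226 higher and 394 to 774 lower, and in normoxia 495 to 536 and 434 to 504.

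The response difference was the least stable count. Against 99 higher and 52 lower, DESeq2 called 228 and 144, leaving out replicate 3 of every hypoxia group 552 and 270, and an adjusted p under 0.05 gave 333 and 135. The groups compared with the replicate block gave 60 and 27, and without it 24 lower. Leaving out single libraries gave 40 to 469 and 17 to 256. Of these calls 65.6% were higher, and 75.7% with upper-quartile factors. Against sgXIST7, 358 higher and 308 lower became 156 and 167 in a fit of the groups compared, 547 higher at an adjusted p under 0.05, and 218 to 483 and 214 to 490 without single libraries. The cause of these shifts was not tested. Genes under about 1 CPM rest on few counts.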
